A study of Mus musculus with 15 samples.

Results

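Histone H3 acetylated at lysine 27 (H3K27Ac) was mapped by chromatin immunoprecipitation and sequencing (ChIP-seq) in pancreatic islets, and the regions described here carried an H3K27Ac peak in islets of mice on regular diet (RD) and on high-fat diet with O304 (HFD-O304), but none on high-fat diet alone (HFD). On chromosomes 1 to 19, peaks of the 3 H3K27Ac lists that shared at least 1 bp were treated as a single region. Of 25452 regions, 544 had this combination, which is 2.14% of all regions. The members were selected on the presence or absence of H3K27Ac peaks. Their H3K27Ac values are therefore given as a description, without a test.

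Islets came from mice of the CBA strain, for which the labels name no transgene or deletion, and the diets were RD, HFD and HFD-O304. O304 is an activator of AMPK, the AMP-activated protein kinase, which senses a low energy state of the cell. About 600 pooled islets were used per ChIP. Each mark and diet had 2 replicates, which the authors merged before calling peaks, so that each diet is represented by 1 list and no spread between replicates can be given. Whole islets were used, and fewer cells of a type with a mark and less of the mark per cell cannot be told apart.

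H3K27Ac is placed on nucleosomes of active promoters and enhancers by the acetyltransferases p300 and CBP. H3K27Me3, the trimethylated form of the same lysine, is written by the Polycomb complex PRC2 and is found at silenced genes, and since 1 residue cannot carry both modifications the marks tend to occupy separate nucleosomes. In beta cells, enhancers with H3K27Ac lie close to genes for insulin secretion and cell identity and are bound by factors such as NKX6-1, MAFA and NEUROD1.

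After removal of duplicates, MACS counted 83773042 fragments for H3K27Ac of RD, 95218072 for HFD and 84694188 for HFD-O304. The measure used throughout is the fold enrichment of a peak, its coverage over the uniform background of its list. Called peaks started from a fold of 2.28 for RD, 2.17 for HFD and 2.25 for HFD-O304, and the HFD list thus reached the weakest peaks of the 3. Among genes that mark islet cell types on chromosomes 1 to 19, promoters of 6, 8 and 8 of 10 beta cell genes had an H3K27Ac peak in RD, HFD and HFD-O304. None of 6 genes of alpha, delta and PP cells, none of 8 immune genes and 1 of 8 acinar genes did so in each of the 3 diets. For ductal genes the numbers were 1, 1 and 3 of 5, for endothelial genes 0, 0 and 1 of 6, and for stromal genes none of 6 in each diet.

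Before the values, sequences of the regions on which the description turns are shown, read from the reference (GRCm38, strain C57BL/6J, plus strand unless stated). They are stretches of the strongest promoter regions and of the strongest regions away from promoters that held little repeat sequence and no H3K27Me3 peak. They lie outside annotated exons. Capitals mark CpG dinucleotides, which are dense at many mouse promoters. The stretches are chr9:95844956-95845155 at Pls1, chr11:26387311-26387510 at Fancl, chr8:64732994-64733193 at Msmo1, chr5:110839362-110839495 at Hscb, chr12:54734355-54734554 nearest to Eapp and chr1:72225603-72225802 nearest to Mreg.
Pls1 promoter: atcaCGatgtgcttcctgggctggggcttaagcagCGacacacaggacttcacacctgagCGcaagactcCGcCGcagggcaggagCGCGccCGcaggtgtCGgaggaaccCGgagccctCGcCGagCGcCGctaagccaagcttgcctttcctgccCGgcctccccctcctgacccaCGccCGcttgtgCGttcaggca
Fancl promoter: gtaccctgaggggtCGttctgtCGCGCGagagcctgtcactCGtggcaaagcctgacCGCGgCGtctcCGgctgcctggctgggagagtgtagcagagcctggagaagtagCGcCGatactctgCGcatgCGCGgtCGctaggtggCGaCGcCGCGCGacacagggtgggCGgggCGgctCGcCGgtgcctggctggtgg
Msmo1 promoter: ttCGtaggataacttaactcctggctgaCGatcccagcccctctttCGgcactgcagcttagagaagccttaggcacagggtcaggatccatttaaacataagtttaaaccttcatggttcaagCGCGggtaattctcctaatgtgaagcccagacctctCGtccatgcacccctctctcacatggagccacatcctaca
Hscb promoter: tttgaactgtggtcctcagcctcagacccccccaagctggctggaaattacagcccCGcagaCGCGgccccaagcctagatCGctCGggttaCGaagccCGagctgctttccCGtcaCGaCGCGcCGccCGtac
near Eapp: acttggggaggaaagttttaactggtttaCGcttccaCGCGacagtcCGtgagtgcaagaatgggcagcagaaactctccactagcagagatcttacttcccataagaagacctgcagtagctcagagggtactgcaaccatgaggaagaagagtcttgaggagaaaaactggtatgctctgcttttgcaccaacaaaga
near Mreg: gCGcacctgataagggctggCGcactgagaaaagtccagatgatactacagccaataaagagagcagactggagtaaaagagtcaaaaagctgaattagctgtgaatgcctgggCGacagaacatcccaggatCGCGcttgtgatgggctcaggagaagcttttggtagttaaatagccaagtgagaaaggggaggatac
The stretches at Pls1 and Fancl held 18 and 24 CpGs in 200 bp, and that at Hscb 13 in 134 bp. That at Msmo1 held 6, and the stretches near Eapp and Mreg 4 and 5, in 200 bp. Over the whole regions the observed over expected CpG ratio was 0.833 near Eapp and 0.614 near Mreg. It was 0.850 at Pls1, 0.929 at Fancl, 0.734 at Hscb and 0.502 at Msmo1. The stretches near Eapp and Mreg thus do not stand for the CpG content of their regions.

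The regions were weakly enriched in both diets in which they were called. The fold ranged from 2.28 to 20.9 in RD, with a median of 2.47, and from 2.25 to 18.2 in HFD-O304, with a median of 2.50. The lower of the 2 folds of a region had a median of 2.39, close to the lowest fold of 2.17 in the HFD list. It reached 1.2 times that fold in 98 regions, 1.5 times in 6 and 2 times in 1. Regions with an H3K27Ac peak in all 3 diets had median folds of 2.88 in RD and 3.04 in HFD-O304. The lists hold no value for HFD where no HFD peak was called, and the size of the difference between HFD and the other diets in these regions is therefore unknown.

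The rule required the peaks of RD and HFD-O304 to overlap. Each region held 1 peak of each diet. In 241 regions the shorter peak lay wholly within the longer one, and in 48 regions the overlap was under 50% of the shorter peak. The median region was 632 bp long (277 to 3934), against 1345.5 bp for regions of all 3 diets. The median was 622 bp for regions called in RD and HFD only and 855.5 bp for those called in HFD and HFD-O304 only. The fold was higher in HFD-O304 than in RD in 282 of 544 regions. By place, HFD-O304 had the higher fold in 81 of 127 promoter regions and in 102 of 220 intergenic regions, which was not tested.

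**Figure D1:**
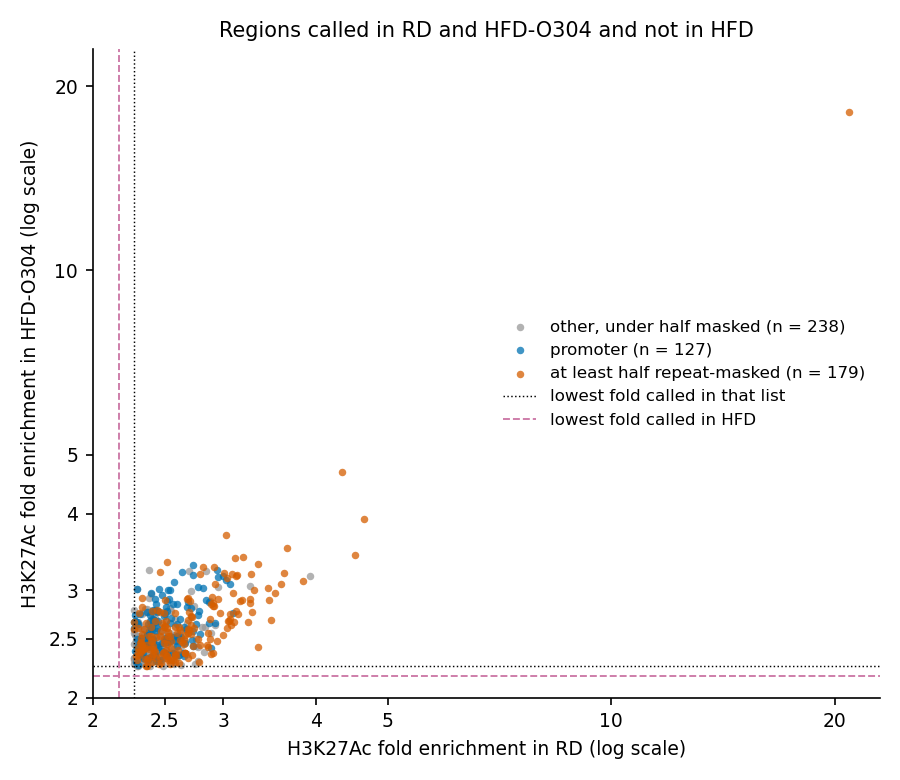
Fold enrichment of H3K27Ac in RD (x axis) and in HFD-O304 (y axis), both on log scales, for the 544 regions with a peak in both diets and none in HFD. Each point is a region, colours give its kind, dotted lines mark the lowest fold called in RD (2.28) and HFD-O304 (2.25), dashed lines the lowest fold called in HFD (2.17), and most points crowd near those limits, with 1 region at 20.9 and 18.2.

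The limits of the selection rule were as follows. A member at the lowest −log10 q of RD, near Cfap69 (chr5:5629840-5630956), had a value of 2.09 in RD and 4.33 in HFD-O304. The closest HFD peak to any member lay 31 bp away, which occurred at 2 members, near Tmem38b (chr4:53945772-53947287) and St3gal5 (chr6:72144414-72145617). On the other side, the region chr4:148922478-148923852 was left out because an HFD peak overlapped it by 1 bp, and 8 regions in all were left out by an overlap under 50 bp. An HFD peak lay within 1 kb of 12 members, within 5 kb of 96 and within 10 kb of 152, and the median distance was 27.3 kb. No HFD peak was found within 100 kb of 115 members.

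The genomic position of the regions was compared next, a measure that the rule did not use. Promoter regions are those that came within 1000 bp of the start site of a protein-coding gene. Of the 544 regions 127 lay at promoters, 23.3% (95% Wilson interval 20.0 to 27.1), against 45.3% of all regions. A further 181 regions lay in introns (33.3%), 16 in exons (2.94%) and 220 between genes (40.4%, 36.4 to 44.6), where 26.9% of all regions lay. The most similar classes were the regions called in RD and HFD only (n = 932) and those called in HFD and HFD-O304 only (n = 2994), since all 3 classes have a peak in exactly 2 diets. The promoter share was 18.1% (15.8 to 20.7) in the former and 35.1% (33.4 to 36.8) in the latter. The odds of a promoter were higher than in the RD and HFD class (odds ratio 1.38, Fisher's exact test, two-sided, adjusted p = 0.018) and lower than in the HFD and HFD-O304 class (odds ratio 0.563, Fisher's exact test, adjusted p = 1.5e-07). These tests, 6 in all with Benjamini-Hochberg adjustment, compare regions and not animals, and regions with related sequence are not independent. The difference from the RD and HFD class was lost without peaks that were at least 50% repeat-masked (odds ratio 1.16, Fisher's exact test, adjusted p = 0.47). With a −log10 q of at least 5 asked for presence and absence it was also lost (odds ratio 0.861, Fisher's exact test, adjusted p = 0.37). The promoter share was then 49.1%, among regions that can hold an HFD peak under that limit. With the limit asked for RD and HFD-O304 only, the share was 19.2%.

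Repeat content also differed between the classes. At least 50% of the bases were repeat-masked in 179 regions, 32.9% (29.1 to 37.0), against 17.6% of all regions. The share was 42.3% (39.1 to 45.5) in the RD and HFD class, with an odds ratio of 0.670 (Fisher's exact test, adjusted p = 0.00059), and 15.0% (13.8 to 16.3) in the HFD and HFD-O304 class, with an odds ratio of 2.78 (Fisher's exact test, adjusted p = 3.3e-20). None of the 127 promoter regions reached 50%. When a −log10 q of at least 5 was asked for presence and absence, the difference from the RD and HFD class turned around (odds ratio 1.48, Fisher's exact test, adjusted p = 0.041).

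**Figure D2:**
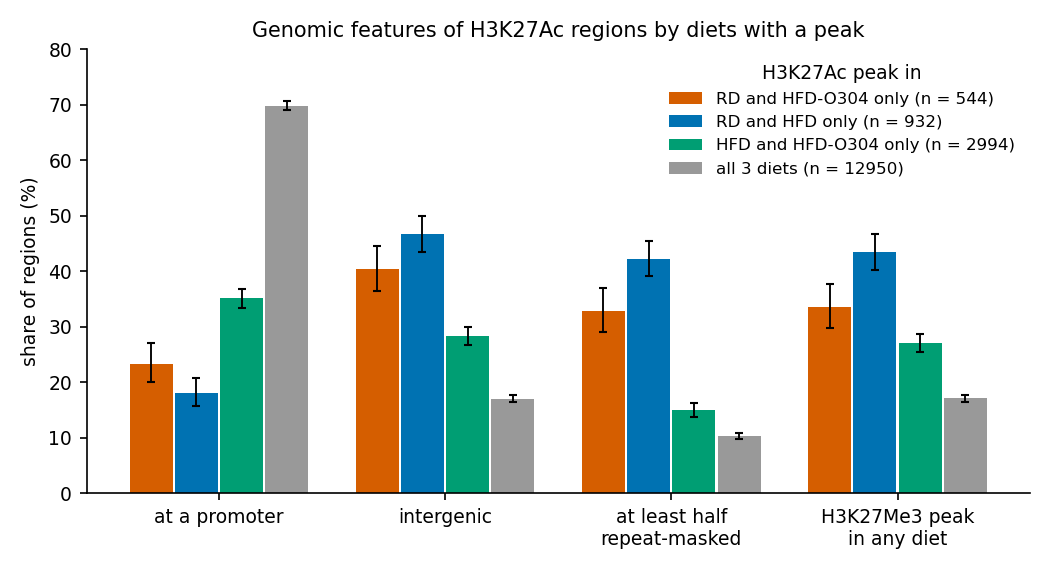
Share of regions (y axis, percent) at a promoter, between genes, at least 50% repeat-masked and with an H3K27Me3 peak, for regions by the diets in which H3K27Ac was called. Bars are shares, error bars 95% Wilson intervals over regions, and the 544 regions of RD and HFD-O304 stand between the other classes of 2 diets in promoter (23.3%) and repeat-rich (32.9%) share.

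The strongest of the regions were mostly repeats. Of the 20 regions with the highest lower −log10 q, that is the lower value of RD and HFD-O304, 17 were at least 50% repeat-masked. The repeat-rich share was 23.1% among the 333 regions with a lower −log10 q under 3 and 87.5% among the 16 regions at 7 or more, and 0 of those 16 lay at a promoter. Both −log10 q were at least 5 in 52 regions, of which 15 were under 50% repeat-masked. At that strength no difference in repeat-rich share from the RD and HFD class was called (odds ratio 1.13, Fisher's exact test, adjusted p = 0.85). The share stayed higher than in the HFD and HFD-O304 class (odds ratio 18.1, Fisher's exact test, adjusted p = 2.1e-16).

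**Figure D3:**
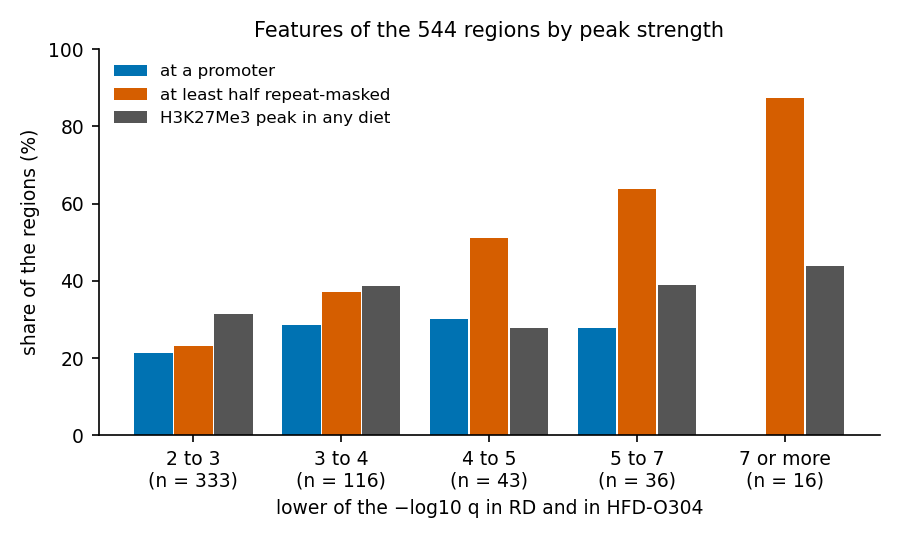
Share of the 544 regions (y axis, percent) at a promoter, at least 50% repeat-masked and with an H3K27Me3 peak, by the lower of the −log10 q in RD and HFD-O304 (x axis). The repeat-rich share was 23.1% in the weakest bin (n = 333) and 87.5% in the strongest (n = 16), where 0 regions lay at a promoter.

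The strongest region (chr1:195371623-195371969), 347 bp long and wholly repeat-masked, had a fold of 20.9 in RD and 18.2 in HFD-O304. H3K27Me3 was called there in all 3 diets, with folds of 33.5 (RD), 27.4 (HFD) and 35.3 (HFD-O304). The other regions among the 6 strongest were also wholly repeat-masked. At chr6:25529015-25529411, between genes, the folds were 4.34 in RD and 4.67 in HFD-O304. At chr10:43860865-43861246, 40.7 kb from a start site of Qrsl1, they were 4.64 and 3.92. An intronic region of the pheromone receptor gene Vmn2r46 (chr7:9752625-9752934) had 3.66 and 3.51. The regions chr1:101927687-101927977 and chr5:70344578-70344999, both far from any protein-coding start site, had 4.51 and 3.42, and 3.34 and 3.31.

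Many of the repeat-rich regions shared sequence with each other. Regions with at least 20 stretches of 30 bases in common on either strand were placed in a group, which gave 4 groups of 10 or more regions with 45, 44, 28 and 14 regions. These 131 regions were all repeat-rich, spread over 11 to 18 chromosomes per group, and none was at a promoter. How uniquely reads map to these copies was not measured, and regions that share sequence are not independent observations. From each group 2 regions are shown, with the most widely shared 30 bases in capitals.
group 1, chr7:82213520-82213639, minus strand: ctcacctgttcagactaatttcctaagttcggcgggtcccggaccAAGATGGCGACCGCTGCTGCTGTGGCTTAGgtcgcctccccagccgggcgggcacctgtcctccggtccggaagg
group 1, chr2:55492347-55492466, minus strand: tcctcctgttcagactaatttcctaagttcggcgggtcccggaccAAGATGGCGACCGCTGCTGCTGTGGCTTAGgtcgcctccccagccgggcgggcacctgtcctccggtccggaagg
group 2, chr14:58569354-58569473, plus strand: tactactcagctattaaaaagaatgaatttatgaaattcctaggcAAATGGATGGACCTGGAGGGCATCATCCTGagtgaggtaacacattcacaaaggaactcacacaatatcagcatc
group 2, chr14:82662380-82662499, plus strand: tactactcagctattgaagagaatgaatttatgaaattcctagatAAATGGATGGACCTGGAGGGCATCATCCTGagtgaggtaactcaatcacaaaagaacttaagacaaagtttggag
group 3, chr1:8689019-8689138, plus strand: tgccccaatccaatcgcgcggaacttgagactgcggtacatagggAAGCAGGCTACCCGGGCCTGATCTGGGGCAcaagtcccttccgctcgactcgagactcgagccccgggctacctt
group 3, chr6:45174337-45174456, minus strand: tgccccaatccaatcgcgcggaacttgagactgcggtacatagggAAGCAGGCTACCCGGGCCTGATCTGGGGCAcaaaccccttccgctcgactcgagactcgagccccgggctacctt
group 4, chr12:62561143-62561262, minus strand: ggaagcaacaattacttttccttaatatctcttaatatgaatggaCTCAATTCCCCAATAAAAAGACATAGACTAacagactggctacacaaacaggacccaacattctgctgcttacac
group 4, chr1:53609797-53609916, plus strand: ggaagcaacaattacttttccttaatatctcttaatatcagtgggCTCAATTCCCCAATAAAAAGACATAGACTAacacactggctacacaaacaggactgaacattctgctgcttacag

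The groups differed in base composition and strength. Groups 1 and 3 were rich in GC, with medians of 64.6% and 62.3%, and their median folds were near those of all members (2.52 in RD and 2.52 in HFD-O304 in group 1, 2.48 and 2.45 in group 3). Groups 2 and 4 were poorer in GC, at 42.2% and 38.3%, and stronger, with median folds of 3.01 in RD and 2.85 in HFD-O304 in group 2 and of 3.09 and 2.73 in group 4. Group 2 supplied 10 of the 20 strongest regions. The capital letters of group 1 occurred in 37 members, in 82 regions of the RD and HFD class, in 106 of the HFD and HFD-O304 class and in 224 regions called in all 3 diets, which is 6.80%, 8.80%, 3.54% and 1.73% of each class. Those of group 3 occurred in 4.96%, 6.12%, 2.64% and 0.842% in the same order, and those of group 4 in 0.919%, 0.215%, 0.0334% and 0.0772%. Those of group 2 occurred in 8 members (1.47%), in 5 regions of the RD and HFD class (0.536%), in 2 of the HFD and HFD-O304 class (0.0668%) and in 40 called in all 3 diets (0.309%). These letters were picked from the members, and no test was made.

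H3K27Me3 was examined as the mark that was not used in choosing the regions. An H3K27Me3 peak of any diet overlapped 183 of the 544 regions, 33.6% (29.8 to 37.7), against 23.5% of all regions. The share was 43.5% (40.3 to 46.7) in the RD and HFD class (odds ratio 0.660, Fisher's exact test, adjusted p = 0.00044) and 27% (25.5 to 28.6) in the HFD and HFD-O304 class (odds ratio 1.37, Fisher's exact test, adjusted p = 0.0022). The former difference was lost without repeat-rich peaks (odds ratio 0.884, Fisher's exact test, adjusted p = 0.47), and also with a −log10 q of at least 5 (odds ratio 1.21, Fisher's exact test, adjusted p = 0.36). The latter was lost when peaks had to overlap by at least 50% of the shorter one (odds ratio 1.21, Fisher's exact test, adjusted p = 0.073).

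After removal of duplicates, the H3K27Me3 lists kept 74870300 fragments for RD, 54166902 for HFD and 57324419 for HFD-O304. Their called peaks started from folds of 2.53, 2.76 and 2.69 in the same order. By diet, H3K27Me3 was called on 156 of the regions for RD (28.7%) and on 145 for each of HFD and HFD-O304 (26.7%). Of all regions 20%, 19.3% and 19.7% carried it in RD, HFD and HFD-O304. In 118 of the 183 regions it was called in all 3 diets. It was called in HFD alone, the diet without H3K27Ac, in 18 regions, and in both RD and HFD-O304 but not HFD in another 18. RD alone had 17. H3K27Me3 in HFD alone thus fell on 3.31% of the regions, against 2.36% in the RD and HFD class, 1.5% in the HFD and HFD-O304 class and 1.37% where H3K27Ac was called in all 3 diets. H3K27Me3 in RD and HFD-O304 without HFD also fell on 3.31% of the regions, against 3.65%, 1.64% and 0.618% in the same order. These shares were not tested.

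Among the members, the H3K27Me3 calls differed by the kind of sequence. The same split was not made for other regions, and it is not known to be particular to the members. The capital letters of groups 1 and 3 occurred in 751 and 548 of all regions. Of the 365 regions under 50% repeat-masked 64 had an H3K27Me3 peak, and of the 179 repeat-rich regions 119 had one. In groups 1 and 3 it was called in 45 of 45 and 28 of 28 regions, mostly in all 3 diets (41 and 24). In group 4 it was called in 0 of 14 regions. Group 2 had no H3K27Me3 peak in 29 of 44 regions and a peak in HFD alone in 12, and these 12 were all the repeat-rich regions with that combination. H3K27Me3 folds in group 2 had a median of 3.12 in HFD, against a lowest called fold of 2.76 in that list.

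**Figure D4:**
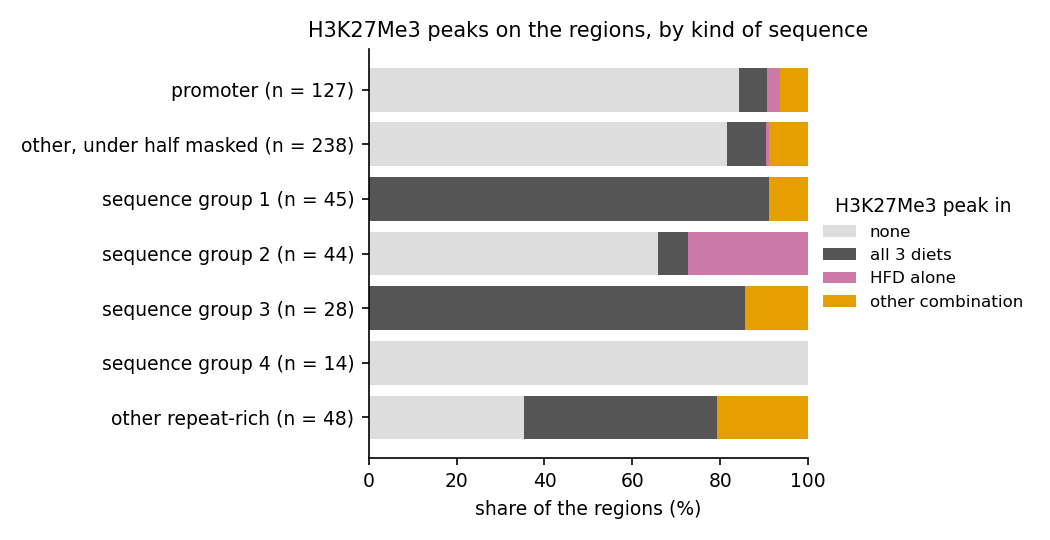
Share of regions (x axis, percent) with an H3K27Me3 peak in no diet, in all 3 diets, in HFD alone or in another combination, for promoter regions, other regions under 50% repeat-masked, the 4 groups with shared sequence and the other repeat-rich regions. Groups 1 and 3 carried H3K27Me3 in 45 of 45 and 28 of 28 regions, group 4 in 0 of 14, and HFD alone is seen mainly in group 2 (12 of 44).

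The remaining 6 regions with H3K27Me3 in HFD alone were named after their values were seen. They include the promoters of Cdk6, a cyclin-dependent kinase that drives entry into the cell cycle, of Bdnf, a neurotrophin, of the adhesion molecule gene Mcam and of Prrg4. At Cdk6 (chr5:3343850-3344654) the H3K27Ac fold was 2.37 in RD and 2.53 in HFD-O304, and the H3K27Me3 fold was 2.95 in HFD. At Bdnf (chr2:109693382-109694317) the values were 2.38, 2.33 and 2.91. At Mcam (chr9:44134318-44135202) they were 2.37, 2.30 and 2.84, and at Prrg4 (chr2:104849328-104849879) 2.44, 2.60 and 2.91. The others lay 17.2 kb from a start site of Calcoco1 (chr15:102692274-102693192) and in an intron of Arfgef2 (chr2:166830697-166831819). The H3K27Ac values of these promoters were near the lowest folds called. Their H3K27Me3 folds in HFD lay between the lowest fold called in that list, 2.76, and its median of 3.17.

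Promoter regions had a median length of 670 bp. By definition they lay close to a start site, and the midpoint lay within 500 bp of a start site in 112 of 127 promoter regions. Their median GC content was 59%, and the observed over expected CpG ratio had a median of 0.6, against 0.235 in intronic and 0.309 in intergenic members. An H3K27Me3 peak was found on 20 of them. The regions served 134 genes, of which 106 had no HFD peak at any of their start sites and 28 had one at another start site. Among all 20698 protein-coding genes 109 had a peak at a start site in RD and HFD-O304 and none in HFD. The rule chose the promoter regions for this combination of peaks, so these counts describe the selection and were not tested.

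The strongest promoter regions had folds between 2.78 and 3.23 in the diets with a peak. At Pls1, encoding the actin-bundling protein plastin 1 (chr9:95844817-95845294), the fold was 3.06 in RD and 3.07 in HFD-O304, and the nearest HFD peak was 12.3 kb away. Zfp971, a zinc finger gene (chr2:178023315-178023792), had 3.02 and 3.12. At Fancl, whose product is the ubiquitin ligase subunit of the Fanconi anaemia complex (chr11:26387099-26387514), the fold was 3.0 and 3.16, with no HFD peak for 176.1 kb. Msmo1, an enzyme of cholesterol synthesis (chr8:64732613-64733574), had 2.95 and 3.15. At Pls1 the values of the diets were nearly the same, and at the other genes the value of HFD-O304 was the higher.

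A shared promoter of Hscb, a cochaperone of iron-sulphur cluster assembly, and Chek2, the checkpoint kinase of the DNA damage response (chr5:110839362-110839773), had folds of 2.94 in RD and 3.23 in HFD-O304. At Dera, which encodes deoxyribose-phosphate aldolase (chr6:137754518-137754880), they were 2.87 and 2.87. Lmln, a metallopeptidase gene (chr16:33062578-33062998), had 2.84 and 2.89. Map9, a microtubule-associated protein (chr3:82357865-82358534), had 2.82 and 3.02, and another of its start sites did carry an HFD peak. Pot1a, a protein that binds single-stranded telomere DNA (chr6:25808800-25809564), had 2.78 and 2.78, and no HFD peak lay within 177.1 kb. The largest difference between RD and HFD-O304 among these promoters was at Hscb and Chek2.

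**Figure D5:**
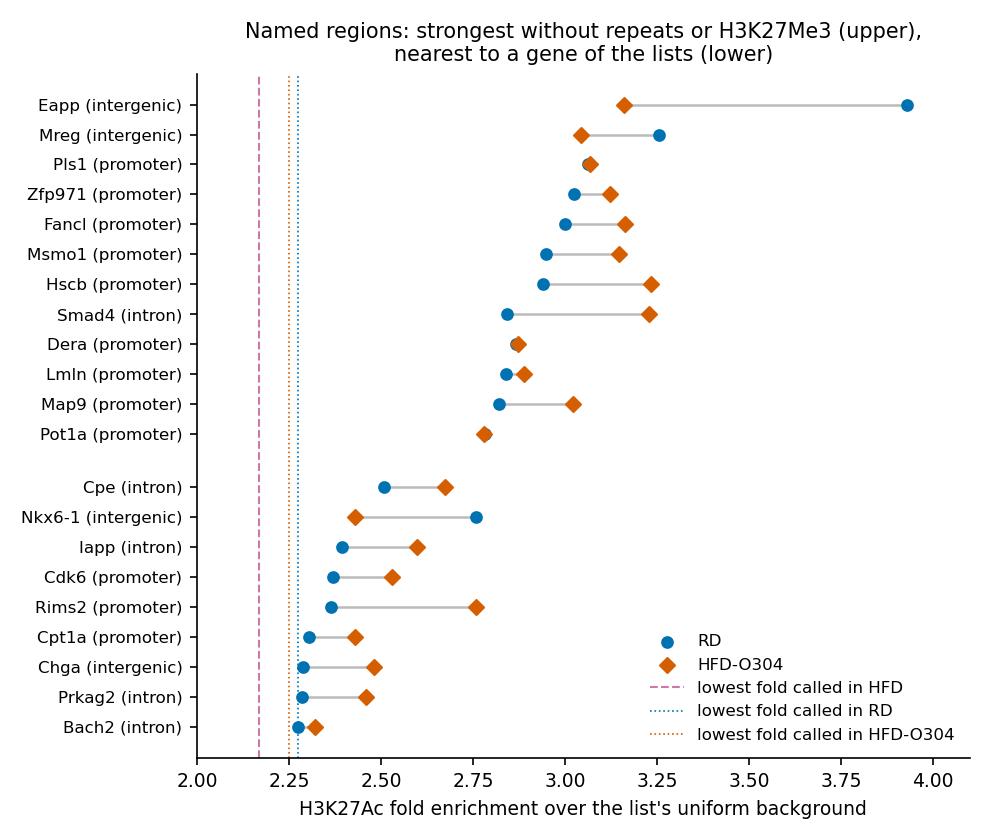
H3K27Ac fold enrichment (x axis) in RD (circles) and HFD-O304 (diamonds) of named regions, labelled by their nearest gene and position. The upper 12 are the strongest regions under 50% repeat-masked with no H3K27Me3 peak, up to 3.93 in RD near Eapp, and the lower 9 are nearest to genes of the lists, from 2.28 to 2.76, where vertical lines mark the lowest fold called in each list.

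Away from promoters, the strongest regions under 50% repeat-masked and without H3K27Me3 lay between genes near Eapp and Mreg and in an intron of Smad4. Near Eapp, a gene of an E2F-associated phosphoprotein, the region chr12:54734085-54735057 was 38.7 kb from the start site and had a fold of 3.93 in RD and 3.16 in HFD-O304. An HFD peak lay 3.47 kb from it. Near Mreg, encoding the melanosome transport factor melanoregulin, chr1:72225128-72226277 had 3.25 and 3.04, 13.4 kb from the start site. In Smad4, the common mediator of TGF-beta signalling, chr18:73652130-73652653 had 2.84 in RD and 3.23 in HFD-O304. The fold was higher in RD in the former 2 and higher in HFD-O304 in Smad4.

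To see which genes lay nearby, each region was assigned to the nearest protein-coding start site within 100 kb. This held for 420 regions and gave 407 genes, 1.97% of all protein-coding genes. Lists of islet and metabolic genes had 184 members on chromosomes 1 to 19, and 10 of them (5.43%) were nearest to a region. These were 2 of 28 islet transcription factors, 3 of 22 hormones and granule proteins, 2 of 25 genes of glucose sensing and exocytosis, 2 of 28 genes of AMPK and energy metabolism and 1 of 23 cell cycle genes. None of 21 genes of the unfolded protein response, none of 15 stress and disallowed genes and none of 22 synaptic genes was nearest to a region. The number of regions that a gene can attract grows with the space around it, and the share was not tested.

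Among granule proteins, Cpe encodes carboxypeptidase E, which trims prohormones including proinsulin. A region in its intron (chr8:64624477-64625860) had a fold of 2.51 in RD and 2.67 in HFD-O304, and an HFD peak lay 2.33 kb away. Upstream of Chga, the gene of the granule protein chromogranin A, chr12:102546726-102547711 lay 7.75 kb from the start site with 2.29 and 2.48. Iapp, the amyloid polypeptide secreted with insulin, was the nearest gene to a region in an intron of Slco1a5 (chr6:142288335-142289421), 9.55 kb from its start site, with 2.39 and 2.60. HFD peaks lay 2.12 kb and 1.17 kb from the Chga and Iapp regions. Start sites of Cpe and Chga carried an H3K27Ac peak in all 3 diets, and no start site of Iapp carried one in any diet. All 3 regions had the higher fold in HFD-O304, as did 282 of all 544 members, and this was not tested.

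Of the transcription factor genes, Nkx6-1, which maintains beta cell identity, was nearest to chr5:101576411-101576942, 88.3 kb from its start site. The fold was 2.76 in RD and 2.43 in HFD-O304, and an HFD peak lay 1.08 kb away. Bach2, a transcriptional repressor, held a region in an intron (chr4:32352755-32353576) with 2.28 and 2.32. At the promoter of Rims2, a scaffold of the exocytosis site (chr15:39659521-39659989), the fold was 2.37 in RD and 2.76 in HFD-O304. Start sites of Nkx6-1, Bach2 and Rims2 carried an H3K27Ac peak in all 3 diets, for Rims2 at another start site in HFD.

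The genes of energy metabolism were Prkag2 and Cpt1a. Prkag2 encodes a gamma subunit of AMPK itself, and a region in its intron (chr5:25010553-25011146) had a fold of 2.29 in RD and 2.46 in HFD-O304. At Cpt1a, the carnitine palmitoyltransferase that brings fatty acids into mitochondria, a promoter region (chr19:3333020-3334576) had 2.31 and 2.43. An HFD peak lay 5.10 kb away at Cpt1a, and another Cpt1a start site carried one. Of the 10 regions near listed genes, 8 had the higher fold in HFD-O304, against 282 of all 544 members, and this was not tested. The region near Nkx6-1 was among those with the higher fold in RD.

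Letters of motifs were searched in stretches of the regions near secretory genes. Capitals in the next sequences mark matches to the NEUROD1 E-box CAGATG, the AP-1 site TGANTCA or the GATA site AGATAAG on either strand. They come from chr12:102546849-102547048 upstream of Chga and chr6:142288778-142288977 near Iapp. The Iapp stretch is the centre of its region. The Chga stretch begins at a GATA match and lies outside the central 200 bp of its region. Its matches are therefore not part of the counts over all members given below.
Chga region: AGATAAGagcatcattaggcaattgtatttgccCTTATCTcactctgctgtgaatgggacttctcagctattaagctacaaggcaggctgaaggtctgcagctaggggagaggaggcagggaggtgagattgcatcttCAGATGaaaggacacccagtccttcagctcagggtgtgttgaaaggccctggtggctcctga
Iapp region: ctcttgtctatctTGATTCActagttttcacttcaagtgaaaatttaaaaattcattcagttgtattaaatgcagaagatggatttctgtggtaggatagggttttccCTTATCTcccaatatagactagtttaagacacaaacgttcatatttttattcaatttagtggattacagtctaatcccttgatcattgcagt

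Across all members the central 200 bp were searched for 10 motifs on both strands. Outside promoters the E-box CAGATG occurred in 14.1% of the regions (95% Wilson interval 11.1 to 17.8), against 14.4% of all regions outside promoters. The MAF core TGCTGA occurred in 15.6% (12.4 to 19.4) against 15.1%, and the AP-1 site in 3.36% (2.01 to 5.56) against 4.68%. Matches to TGCTGA and TGANTCA can overlap each other. The homeobox core TAATTA had 3.36% against 2.67%, the FOXA core TGTTTAC 1.44% against 2.29%, the HNF1 core GTTAAT 5.04% against 3.90% and the RFX core GTTGCCA 2.88% against 2.21%. At promoters the CTCF core AGGGGGC occurred in 11.8% (7.29 to 18.6) against 8.60% and the cyclic AMP response element TGACGTCA in 1.57% against 1.10%. Counting the GATA site as well, and promoters and other places separately, the share of all regions lay within the interval of the members in 20 of 20 cases. Some of these intervals rest on few matches. At promoters the homeobox, GATA and HNF1 letters occurred in 0 of 127 members (0 to 2.94%). The FOXA and RFX letters each occurred in 1 of 127 (0.139 to 4.33%). Such cases cannot tell whether the shares differ. A match is a sequence of letters and does not show that the factor was bound.

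Promoters of the nearest genes were also examined. Members outside promoters had 286 nearest genes within 100 kb, and H3K27Ac was called at the start sites of 68.5% of them under RD, 73.1% under HFD and 72.4% under HFD-O304. For all protein-coding genes the shares were 49.1%, 55% and 54.4% in the same order. Nearest genes of the RD and HFD class had 60.7%, 65.8% and 63.8%, and those of the HFD and HFD-O304 class 65.7%, 73.1% and 71.3%. These shares were not tested. In 4 of the 286 genes, C1s1, Calcoco1, Qrsl1 and Slc26a1, a start site had H3K27Ac in RD and HFD-O304 and none did in HFD. The same held for 109 of all 20698 protein-coding genes. Each of these 4 genes also had a promoter region among the members, so their combination of peaks comes from the selection rule. In 70 of the 286 genes no start site was called in any diet, against 8743 of all 20698. Most of the 286 genes thus had a start site that was called in HFD as well.

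Most regions had no other member nearby. Of the 544, 44 lay within 100 kb of another member, in 21 groups of at most 3. The groups of 3 were at Sema5b, a semaphorin gene, with its neighbour Pdia5 (chr16:35509254-35529865), and at Erich3 (chr3:154652786-154772321), which was the gene nearest to all 3 of its regions. The 3 regions at Erich3 had folds of 2.28, 2.48 and 2.29 in RD and of 2.32, 2.37 and 2.34 in HFD-O304. The longest members were an exonic region of Urb1, a ribosome biogenesis factor, with 3934 bp (chr16:90777107-90781040, folds 2.49 and 2.42), and intergenic regions near Phactr1 with 3157 bp (chr13:42644361-42647517, 2.46 and 2.44) and near Aard with 3112 bp (chr15:52160313-52163424, 2.38 and 2.59). By chromosome, members made up between 0.830% of the H3K27Ac regions on chromosome 17 and 3.22% on chromosome 16.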

How the data were processed

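Islet ChIP-seq of 2 histone marks in 3 diets was analysed from the 6 peak lists. The authors aligned reads to GRCm38 with bowtie2, merged the 2 replicates of each mark and diet and used MACS 2.1.2 in its broad mode. The q cutoff, per the file headers, was 0.01, no control was used, the background was uniform and 1 fragment was kept per position. The deposited values are the mean coverage signal (pileup), the fold enrichment ratio and the −log10 q of each peak. Kept fragments per list numbered 83773042 to 95218072 for H3K27Ac and 54166902 to 74870300 for H3K27Me3. Wilson intervals cover counting error over regions only. With 1 list per diet no test between diets was possible. The 3 input samples were not used, and comparisons left out the sex chromosomes and unplaced sequences.

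Peaks were joined with Python 3.11.15 and pandas 2.3.3, and Fisher's exact test was run with SciPy 1.17.1. The joining was tested on simulated data. Start sites and exons came from the GENCODE mouse release M21, and repeats, GC content and sequences from the soft-masked reference (GRCm38.p6). Where the methods of the study and the headers differ on the q cutoff, the headers were followed. Named regions were the 6 strongest by the lower −log10 q of RD and HFD-O304, the 12 strongest under 50% repeat-masked without H3K27Me3, the 8 strongest at promoters, those nearest to a gene of the lists, those of genes nearest to 3 or more, and the 3 longest. One listed gene and one sequence chosen by these rules are not reported here. The members, gene lists and tests were chosen with earlier results of these data known, and the sequence groups after the values were seen.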

Additional observations from a re-analysis of the deposited data

Results flagged for a closer look

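The same rule applied outside chromosomes 1 to 19 gave 23 more regions, which none of the comparisons above used. Of these, 21 lay on chromosome X, 1 on chromosome Y and 1 on another sequence. On chromosome X the lower of the RD and HFD-O304 folds ranged from 2.28 to 3.05, within the range of the other regions.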

How the results depend on the processing

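Each value was recomputed under 8 to 10 other settings, and 81 of 110 recomputed values kept their direction and call or moved little. The lower promoter share and the higher repeat-rich share relative to the HFD and HFD-O304 class kept their direction and call under every setting run, with odds ratios of 0.0882 to 0.74 and 2.07 to 18.1, both farthest from 1 when RD and HFD-O304 peaks under a −log10 q of 5 were dropped. The H3K27Me3 odds ratio against that class ranged from 1.21 to 3.07. When peaks under a −log10 q of 5 were dropped from every list there were 232 regions, with 49.1% at promoters, 34.9% intergenic and 26.7% with H3K27Me3. Such a region can hold an HFD peak under that limit. Against the RD and HFD class the odds ratios then moved to the other side of 1, with 0.861 for promoters, 1.48 for repeats and 1.21 for H3K27Me3. Only that for repeats was called (Fisher's exact test, adjusted p = 0.041). With that limit for RD and HFD-O304 only, 52 regions were left, with 19.2% at promoters, 59.6% intergenic, 71.2% repeat-rich and 40.4% with H3K27Me3. The same odds ratios against the RD and HFD class were then 1.34, 1.13 and 1.2. None of them was called (Fisher's exact test, adjusted p = 0.85 for each), and those of repeats and H3K27Me3 lay above 1 rather than below. Lists of equal size gave 887 regions, with 30.6% at promoters, 35.5% intergenic and 26.8% repeat-rich. Without repeat-rich peaks the shares were 34.1% at promoters, 29.7% intergenic and 21.5% with H3K27Me3, and the odds ratios of 1.16 for promoters and 0.884 for H3K27Me3 against the RD and HFD class were no longer called. An overlap of at least 50% of the shorter peak gave an odds ratio of 1.21 for H3K27Me3 against the HFD and HFD-O304 class, no longer called. The H3K27Me3 share was 22.2% for H3K27Me3 peaks with a −log10 q of at least 5 and 29.4% where the peak had to cover at least 50% of the region. The cause of these changes was not tested.

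No paired analysis was possible because each list pools both replicates of its diet, and leaving out a replicate was not possible for the same reason. The HFD list was the deepest for H3K27Ac and the RD list for H3K27Me3, and the effect of depth was not tested.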
